A study of Rattus norvegicus with 6 samples.

Results

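The 7 genes described here, Grm2, Grm3, Grm4, Grm5, Grm6, Grm7 and Grm8, encode metabotropic glutamate receptors. They were taken by their symbols from the 38445 genes of the count tables. RNA was sequenced from the amygdala of adult male Sprague Dawley rats injected intraperitoneally with saline (the control group) or with 1 g/kg of ethanol, and the tissue was taken after 1 h. Both groups were wild type, and no other treatment is named for them. The study took tissue either after an elevated plus-maze test or without one, and its main text does not say which held for these rats. A group had 6 rats and 3 libraries, each made from the pooled RNA of 2 rats, so that a library value is the average of a pair of animals. The comparison asks whether the mRNA level of these receptors in the amygdala differed 1 h after a single dose of ethanol. All 7 genes passed the filter on low counts and were tested.

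Metabotropic glutamate receptors are G protein-coupled receptors that bind glutamate through a large extracellular domain and work as dimers. They adjust the release of transmitter and the excitability of neurons over a slower time course than the glutamate-gated ion channels. Group I receptors, to which Grm5 belongs, couple to Gq and phospholipase C and sit mostly on the postsynaptic side, where Homer proteins tie them to the Shank scaffold. Group II (Grm2 and Grm3) and group III (Grm4, Grm6, Grm7 and Grm8) couple to Gi and Go, lower cyclic AMP and mostly restrain release from nerve terminals. Astrocytes can also express Grm3 and Grm5, and Grm6 is best known as the receptor of retinal ON-bipolar cells. In the amygdala these receptors are studied for their roles in fear learning, anxiety and alcohol intake.

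By the quasi-likelihood test of edgeR, adjusted by Benjamini-Hochberg, 0 of the 7 receptor genes had an adjusted p below 0.2, the threshold of the study, and 0 of the 18141 genes tested did (0%). The study's own analysis of these libraries did call genes at this threshold, so the 0% is not the study's result. The reason for the difference was not tested. At an unadjusted p below 0.05 the count was 0 of 7, beside 752 of all genes tested (4.15%). The likelihood ratio test of edgeR, DESeq2 and limma-voom also called 0 of the 7 at an adjusted p below 0.2, beside 0.424%, 0.414% and 0% of the genes that each of them tested. The ethanol and control libraries overlapped for all 7 receptors, whereas the groups did not overlap for 8.85% of all genes tested. On the log2 scale the differences lay between -0.05 for Grm6 and 0.27 for Grm2, and 6 of the 7 were above 0. Their median was 0.06, beside 0.0064 over all genes tested, where 9539 differences were above 0 and 8602 below.

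**Figure D1:**
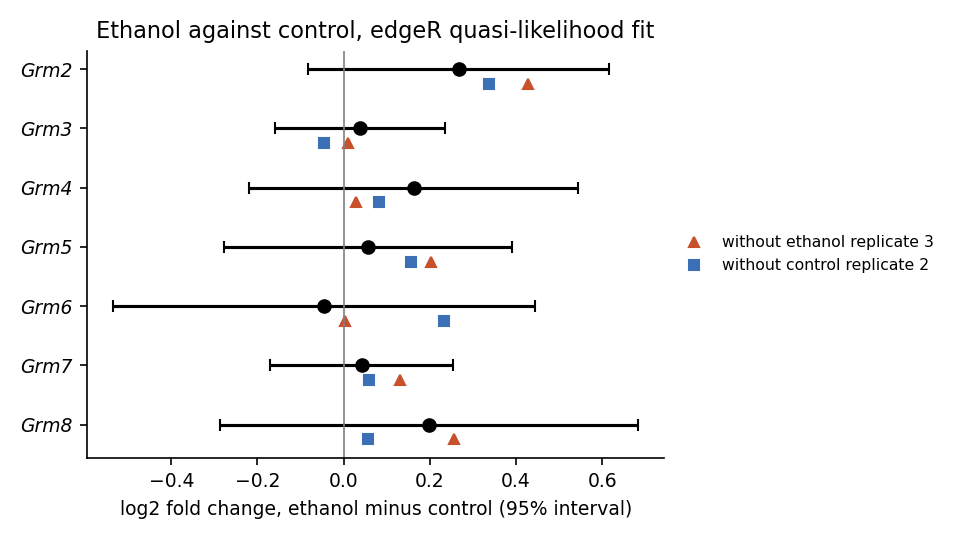
Log2 fold change of each receptor gene, ethanol minus control, on the horizontal axis, with black points for the fit to all 6 libraries and bars for the 95% interval. The orange triangles give the value without ethanol replicate 3 and the blue squares the value without control replicate 2. Every bar crosses 0, and Grm2 has the point farthest from it, at 0.27.

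The libraries held 62576504 to 70755739 reads counted within genes, so that 3 counts correspond to 0.0424 to 0.0479 CPM (counts per 1000000 reads in genes). This floor covers counting error only, and each receptor lay far above it. Libraries differed in the markers of neighboring tissue. The summed level of 10 choroid plexus markers was 530 to 1143 CPM in the control libraries, 14.0 and 14.5 CPM in ethanol 1 and 2, and 490 CPM in ethanol 3. All 9 of these markers that could be tested were lower in the ethanol group, while Otx2 was at or near 0 in every library. The summed level of 6 hypothalamic peptide genes was 9.97 to 108 CPM in the control libraries. It was 22.8 and 13.7 CPM in ethanol 1 and 2, and 315 CPM in ethanol 3. Most of the sum in ethanol 3 was Pmch, the precursor of melanin-concentrating hormone, at 206 CPM. Hcrt and Avp were also highest in ethanol 3 (9.22 and 69.0 CPM). Oxt was highest in control 1 (39.2 CPM), Pomc in control 3 (2.32 CPM) and Agrp in ethanol 1 (0.561 CPM). Genes of neuron types found in the amygdala, though not only there, were present in all libraries. Slc17a7, the vesicular transporter of cortical-type glutamate neurons, was at 413 to 879 CPM. Prkcd, a marker of a class of central amygdala GABA neurons that thalamic neurons share, was at 20.7 to 24.5 CPM. In bulk tissue, fewer cells of a type and less RNA per cell cannot be told apart.

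Levels of different genes were compared per length, as TPM (transcripts per 1000000), which divides the counts by the exonic length and scales every library to the same total. Grm5 had the highest level, at 51.3 ± 6.94 TPM (SD, n = 3) in controls and 53.1 ± 10.2 TPM (SD, n = 3) after ethanol. Grm3 followed at 27.7 ± 2.43 and 28.3 ± 0.707 TPM, and Grm7 at 18.7 ± 1.03 and 19.1 ± 2.41 TPM. Grm2 was at 12.9 ± 1.30 and 15.4 ± 3.42 TPM, Grm4 at 10.4 ± 0.903 and 11.6 ± 2.52 TPM, and Grm8 at 8.47 ± 1.70 and 9.72 ± 2.57 TPM. Grm6 was the lowest, at 1.67 ± 0.542 TPM in controls and 1.61 ± 0.222 TPM after ethanol. The most abundant mRNA of the 7 was thus that of Grm5, whose receptor couples to Gq, and the next was that of Grm3. Astrocytes can express both genes, and bulk tissue does not show which cells carried the mRNA. Receptor protein was not measured.

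The order had 3 clear steps. The lowest Grm5 library (41.5 TPM) was above the highest Grm3 library (29.3 TPM), the lowest Grm3 library (24.9 TPM) was above the highest Grm7 library (21.3 TPM), and the lowest Grm8 library (6.88 TPM) was above the highest Grm6 library (2.29 TPM). The ranges of Grm7 and Grm2 overlapped, although Grm7 was above Grm2 within each of the 6 libraries. Grm2 was above Grm4 in 5 of 6 libraries, the exception being ethanol 3, and Grm4 was above Grm8 in 5 of 6, the exception being ethanol 1. The place of Grm4 relative to Grm2 and to Grm8 therefore varied between libraries. Grm2 was above Grm8 within each of the 6 libraries, although the lowest Grm2 library (11.7 TPM) was below the highest Grm8 library (12.6 TPM). Grm4 is annotated with 2964 exonic bases, the fewest of the 7, and without the length term it ranked below Grm8.

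**Figure D2:**
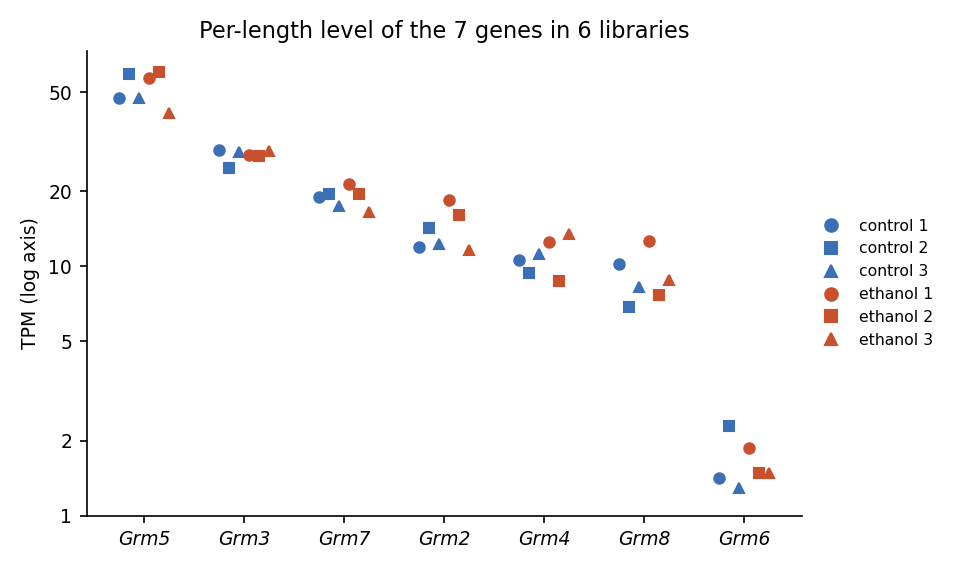
Per-length level in TPM on a log axis for the 7 receptor genes, ordered by their mean, with 1 point for each of the 6 libraries (blue for control, orange for ethanol, shape for the replicate number). Grm5, Grm3 and Grm6 stand apart from their neighbors, and the points of Grm2, Grm4 and Grm8 intermix.

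Summed over the 7 genes, the receptors reached 131 ± 5.07 TPM (SD, n = 3) in controls and 139 ± 14.8 TPM (SD, n = 3) after ethanol. Grm5 made up 33.8% to 43.4% of this sum across the 6 libraries, the group II genes 28.7% to 33.3% and the group III genes 26.3% to 32.9%. The mean share of the group II genes was 31.0% in controls and 31.6% after ethanol, and that of the group III genes 30.0% and 30.4%. The share of Grm7 was 13.5% to 14.6% and that of Grm6 1.02% to 1.68%. These shares describe the RNA of the 7 genes and carry no test.

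Grm5 (NCBI gene 24418) encodes the postsynaptic receptor that releases calcium from internal stores and that is a target of several compounds tested against alcohol intake. It lies on chromosome 1 of Rnor_6.0, the build of the count tables, from 151207846 to 151785038 on the + strand, with 13 exonic blocks. Its level was 130, 156 and 126 CPM in control libraries 1, 2 and 3 and 152, 164 and 113 CPM in ethanol libraries 1, 2 and 3. The highest and the lowest library were both from the ethanol group. On the log2 scale the ethanol group was higher by 0.06 with a standard error of 0.14 (edgeR's adjusted p = 1.00), and the 95% interval of the fold ran from 0.825 to 1.31. The exact permutation test on the 6 libraries gave p = 0.9, where 0.1 is the smallest that 3 libraries against 3 allow.

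Grm2 (NCBI gene 24415), the presynaptic autoreceptor of group II, had the largest difference of the 7 in the fit to all 6 libraries. It lies on chromosome 8 from 115344999 to 115358628 on the - strand, the shortest of the 7 loci at 13630 bases. Its level was 23.7, 27.2 and 23.7 CPM in control 1, 2 and 3, and 35.3, 31.5 and 22.9 CPM in ethanol 1, 2 and 3. Ethanol 1 and 2 were above all 3 controls, and ethanol 3 was below all of them. The log2 fold change was 0.27 with a standard error of 0.15 (edgeR's adjusted p = 1.00, unadjusted p = 0.117), a fold of 1.20 with a 95% interval from 0.944 to 1.53. The exact permutation test gave p = 0.4. When ethanol replicate 3 was left out, the difference was 0.43 on the log2 scale with a standard error of 0.09 (unadjusted p = 0.00232, adjusted p = 0.286), and 0.452% of all genes tested had an adjusted p below 0.2 in that fit. Without ethanol replicate 1 it was 0.13. Grm8 had a larger value than Grm2 without control replicate 1 (0.37 and 0.22), and Grm8 and Grm4 did without ethanol replicate 2 (0.34 and 0.33, beside 0.23). With the choroid plexus score as a covariate, the log2 fold change of Grm2 turned to -0.14 (standard error 0.18, edgeR's adjusted p = 0.908). The score was itself lower in the ethanol group, as were the summed choroid plexus markers given above. The part of these cells in the result was not tested.

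Grm3 (NCBI gene 24416), the group II receptor of neurons and glia, lies on chromosome 4 from 21316761 to 21567561 on the + strand. Its level was 140, 114 and 134 CPM in control 1, 2 and 3, and 129, 131 and 138 CPM in ethanol 1, 2 and 3. The ethanol libraries all lay inside the range of the controls, and their SD of 4.46 CPM was below the 13.8 CPM of the controls. Its log2 fold change was 0.04 with a standard error of 0.08 (edgeR's adjusted p = 1.00), and the 95% interval of the fold, 0.896 to 1.18, was the narrowest of the 7. Of its 12170 exonic bases, 7666 lie in the last block, and 2723 are shared with Elapor2 on the opposite strand. The counts were assigned by strand, so reads of the 2 genes were kept apart as far as the library preparation preserved strand.

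Among the group III genes, Grm7 (NCBI gene 81672), which encodes a receptor of low glutamate affinity in the active zone of terminals, had the highest level. It lies on chromosome 4 from 142452616 to 143368460 on the + strand. Its level was 67.2, 66.0 and 60.3 CPM in control 1, 2 and 3, and 73.2, 67.9 and 58.1 CPM in ethanol 1, 2 and 3. As with Grm2 and Grm5, ethanol 3 was the lowest of the 6. A log2 fold change of 0.04 was fitted with a standard error of 0.09 (edgeR's adjusted p = 1.00), and the 95% interval of the fold ran from 0.888 to 1.19.

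Grm8 (NCBI gene 60590), a presynaptic receptor of high glutamate affinity, varied widely between libraries. It lies on chromosome 4 from 54474344 to 55409526 on the - strand and, at 935183 bases, is the longest of the 7 loci, of which 0.547% is exonic. Its level was 20.6, 13.2 and 16.2 CPM in control 1, 2 and 3, and 24.5, 15.2 and 17.6 CPM in ethanol 1, 2 and 3. Ethanol 1 and control 1 were the highest of the 6 libraries, and control 2 and ethanol 2 the lowest. Its log2 fold change was 0.20 with a standard error of 0.21 (edgeR's adjusted p = 1.00), and the 95% interval of the fold, 0.82 to 1.61, was wide. Without ethanol replicate 1 the log2 fold change was -0.02.

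Grm4 (NCBI gene 24417), the presynaptic group III receptor abundant in cerebellum and striatal input to the pallidum, lies on chromosome 20 from 6745682 to 6791521 on the - strand. Its level was 12.3, 10.5 and 12.6 CPM in control 1, 2 and 3, and 14.1, 9.99 and 15.6 CPM in ethanol 1, 2 and 3. Ethanol 1 and 3 were above all controls and ethanol 2 below all of them, a pattern that differs from that of Grm2. The log2 fold change was 0.16 with a standard error of 0.16 (edgeR's adjusted p = 1.00), and the 95% interval of the fold ran from 0.859 to 1.46. Without ethanol replicate 2 the log2 fold change was 0.33 (unadjusted p = 0.0256, adjusted p = 1.00), and without ethanol replicate 3 it was 0.03.

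Grm6 (NCBI gene 24419) lies on chromosome 10 from 36345503 to 36363416 on the + strand. Its counts were 375, 627 and 322 in control 1, 2 and 3, and 467, 377 and 412 in ethanol 1, 2 and 3. Control 2 was the highest of the 6 and control 3 the lowest, so the ethanol libraries lay inside the control range. The coefficient of variation over the controls was 30.6%, beside 4.82% from counting alone. The log2 fold change was -0.05 with a standard error of 0.21 (edgeR's adjusted p = 1.00), and without control replicate 2 it was 0.23. Gnb3, a G protein beta subunit, acts with Grm6 in retinal ON-bipolar cells. Its level was 5.54 ± 0.805 CPM in controls and 4.42 ± 0.428 CPM after ethanol (SD, n = 3 each). Per length, Gnb3 was above Grm6, at 3.75 to 6.25 TPM over the 6 libraries beside 1.30 to 2.29 TPM. Other partners in these cells had lower levels. Trpm1, the cation channel that the Grm6 receptor closes, averaged 0.479 ± 0.105 CPM in controls and 0.602 ± 0.115 CPM after ethanol (SD, n = 3 each). Gpr179 was at 0.177 ± 0.0561 and 0.134 ± 0.0836 CPM.

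**Figure D3:**
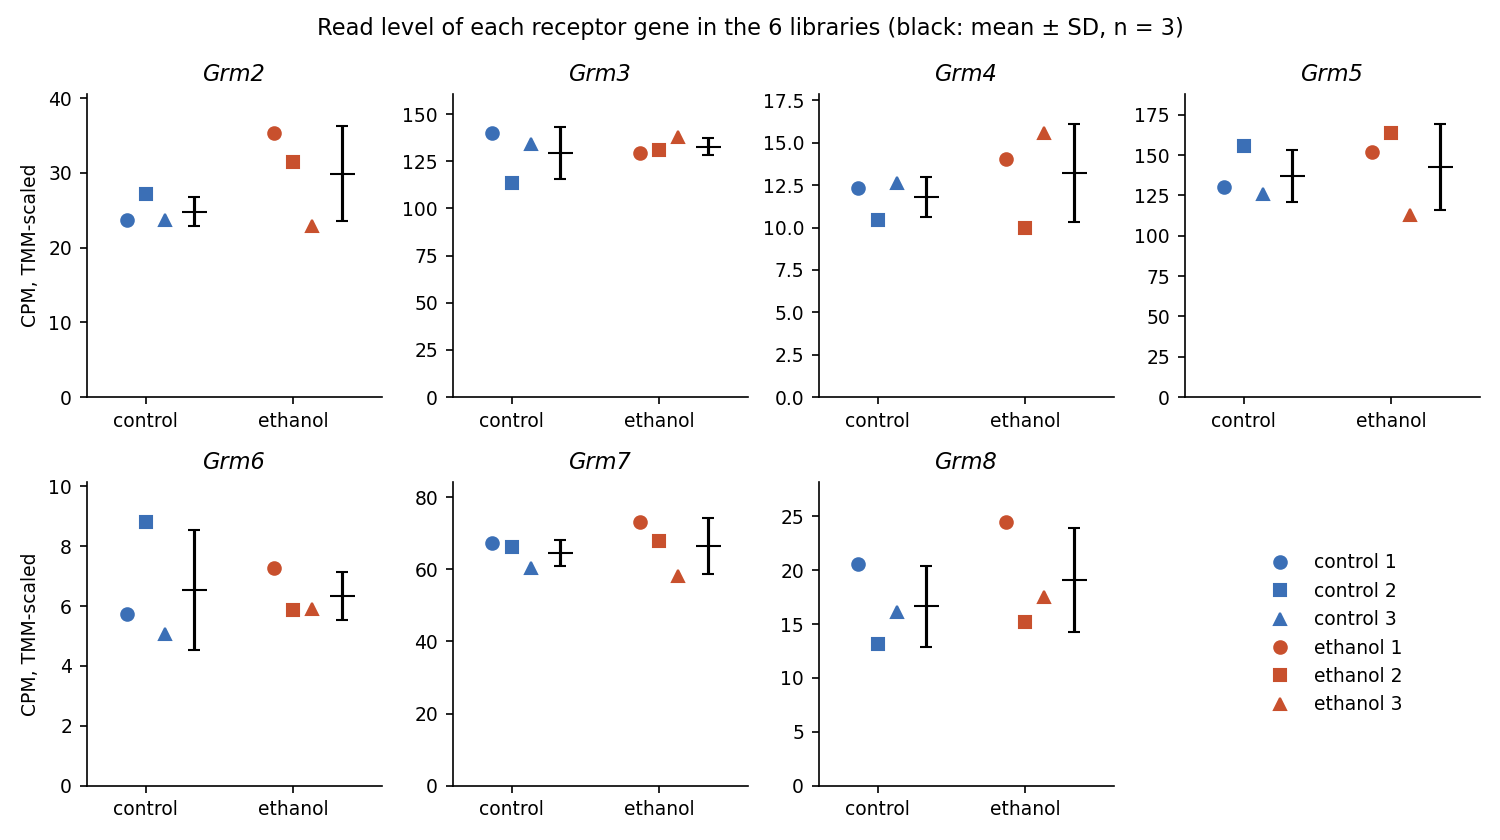
Level of each receptor gene in CPM scaled by TMM (linear axes from 0, a separate scale for each gene), with 1 point per library and the mean ± SD of the 3 libraries of a group in black. The groups overlap for every gene, and in the panel of Grm2 ethanol 3 lies at 22.9 CPM, below the controls.

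The receptors did not move together from library to library. Relative to its own mean over the 6 libraries, Grm5 was lowest in ethanol 3 (-0.31 on the log2 scale) and highest in ethanol 2 (0.23), while Grm4 was highest in ethanol 3 (0.32) and lowest in ethanol 2 (-0.32). Grm2 and Grm7 were also lowest in ethanol 3, at -0.26 and -0.17. Control 2 had the highest value of Grm6 (0.45) and the lowest of Grm3 (-0.20) and Grm8 (-0.44).

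The marker lists differed over the same libraries. The summed level of 8 pallial glutamatergic neuron genes was 895, 1558 and 1204 CPM in control 1, 2 and 3, and 1346, 1694 and 941 CPM in ethanol 1, 2 and 3, with 1 of the 8, Tbr1, higher in the ethanol group at an unadjusted p below 0.05 (4.15% of all genes tested), beside 5 choroid plexus markers that were lower at that threshold. The summed level of 6 oligodendrocyte genes was 8377, 3548 and 5860 CPM in control 1, 2 and 3, and 4354, 6020 and 9725 CPM in ethanol 1, 2 and 3. Ethanol 3 was thus low for the first list and highest for the second, and control 2 was high for the first and lowest for the second. The 9 genes of central amygdala and striatal-type GABA neurons summed to 837 to 1080 CPM in the controls and 844 to 1021 CPM after ethanol, and the 6 astrocyte genes to 3862 to 4612 and 3978 to 5212 CPM. The part of these cell types in the receptor values was not tested. With the pallial neuron score as a covariate, the log2 fold change was nearer 0 for Grm2 (0.16) and Grm7 (-0.0012) and of the opposite sign for Grm5 (-0.06). It was farther from 0 for Grm3 (0.08), Grm4 (0.25), Grm6 (-0.10) and Grm8 (0.27). In that fit 0 of the 7 receptors were called, beside 22 of all genes tested (0.121%).

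**Figure D4:**
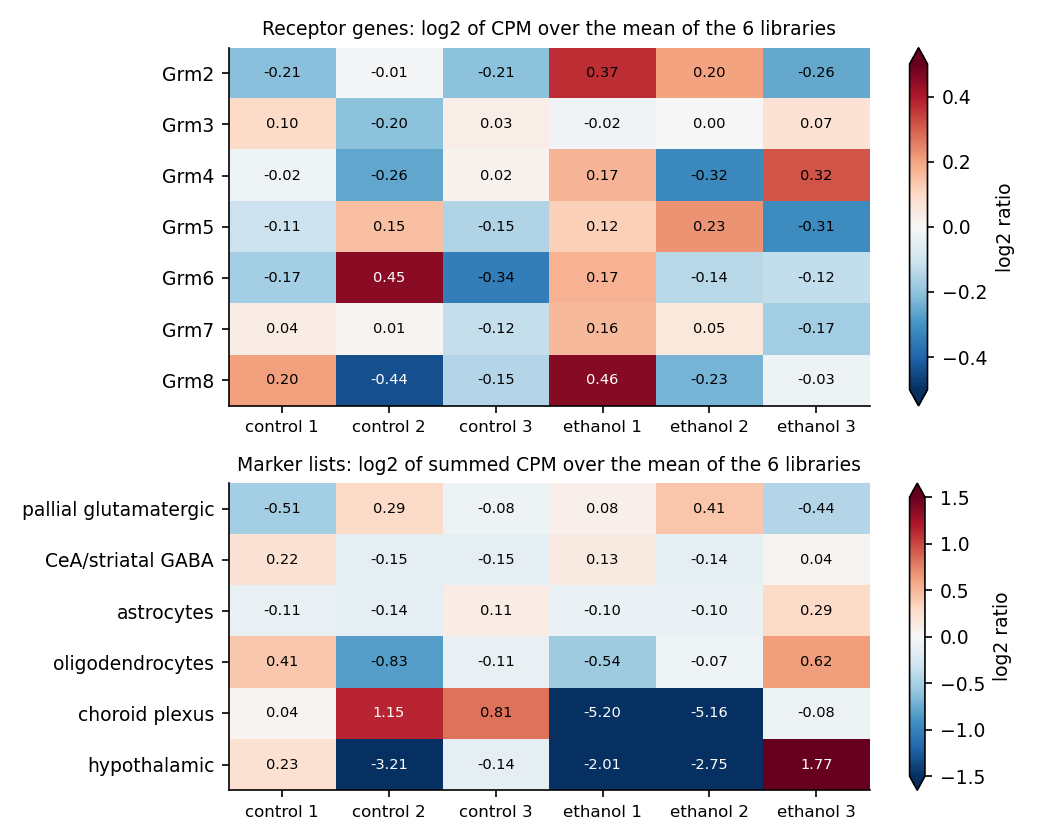
Log2 ratio of each value to its mean over the 6 libraries, for the 7 receptor genes (top, CPM) and for the summed CPM of 6 marker lists (bottom), with the ratio printed in each cell and colors that saturate at the ends of each scale. In ethanol 3, Grm5 stands at -0.31 and Grm4 at 0.32.

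Genes of similar pattern were ranked by the Pearson correlation of log2 CPM over the 6 libraries among 14759 other genes with a mean of at least 1 CPM. With so few points, high values are common: 933 genes had a correlation above 0.9 with Grm5, 390 with Grm2, 290 with Grm7, 213 with Grm3, 139 with Grm4, 90 with Grm6 and 89 with Grm8. The 3 closest to Grm5 were Pwp2, Vrk1 and Sez6 (1.00, 0.998 and 0.998), and the 3 closest to Grm2 were Slc35b4, Sestd1 and Epha7 (0.993, 0.991 and 0.990). Grm8 was closest to Penk (0.998), the precursor of enkephalin and one of the listed GABA neuron genes, followed by Cdv3 (0.988) and Upk2 (0.986). Eif4g2, Sar1b and Siae came closest to Grm3 (0.997, 0.993 and 0.991), and Rgs5, Susd3 and Slc25a15 to Grm4 (0.997, 0.988 and 0.988). For Grm7 these were Faf2, Zmat3 and Ecpas (0.986, 0.985 and 0.982), and for Grm6 they were Man2b2, Ogfod2 and Wdr6 (0.994, 0.988 and 0.987). The points share tissue makeup and depth, and the correlations are given as descriptions. Between the receptors themselves, Grm2 correlated with Grm7 by 0.837 and with Grm5 by 0.821, and Grm3 with Grm6 by -0.863.

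The pathway around the receptors was followed with 75 listed genes, of which 73 were tested. With edgeR's quasi-likelihood test, 0 of the 73 had an adjusted p below 0.2, and 1 had an unadjusted p below 0.05 (1.37%, beside 4.15% of all genes tested). The groups did not overlap for 7 of the 73 (9.59%, beside 8.85% of all genes), 4 with the ethanol libraries above (3.66% of all genes) and 3 with them below (5.19% of all genes). Their median log2 fold change was 0.05, and they ranged from -0.37 to 0.34.

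Among the 15 scaffolds and adaptors, Tamalin, an adaptor that binds the tail of group I receptors, was the gene with an unadjusted p below 0.05. Its level was 18.6, 19.9 and 19.9 CPM in control 1, 2 and 3, and 23.8, 26.4 and 21.3 CPM in ethanol 1, 2 and 3. The log2 fold change was 0.29 with a standard error of 0.09 (edgeR's adjusted p = 1.00, unadjusted p = 0.0127), and the groups did not overlap. Ncdn, a neuronal binding partner of Grm5, and Shank1, a scaffold of the postsynaptic density, were the most highly counted of this list, with log2 fold changes of 0.11 (standard error 0.15) and 0.15 (standard error 0.08). The median of the list was 0.08, and 12 of its 15 genes were above 0.

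Of the 14 genes of Gq output, 0 had an unadjusted p below 0.05, and their median log2 fold change was 0.02. Prkca, a protein kinase C that responds to diacylglycerol and calcium, had a value of -0.02 (standard error 0.17). Of the 16 genes of Gi/o output, 0 had an unadjusted p below 0.05, with a median of 0.06. Gnao1, the alpha subunit of Go, averaged 502 ± 13.9 CPM in controls and 540 ± 23.5 CPM after ethanol (SD, n = 3 each), with a log2 fold change of 0.11 (standard error 0.07) and groups that did not overlap. Gng2, a gamma subunit, was at 509 ± 6.07 and 509 ± 47.2 CPM.

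Of the 11 desensitization genes, 0 had an unadjusted p below 0.05. Arrb1 encodes a beta-arrestin and had a log2 fold change of 0.05 (standard error 0.07), and Grk2, a kinase that phosphorylates active receptors, one of 0.09 (standard error 0.06). Of the 13 genes of ligand supply and clearance, 0 had an unadjusted p below 0.05, and their median was -0.02. Glul, the glutamine synthetase of astrocytes, and Slc1a3, an astrocytic glutamate transporter, had log2 fold changes of 0.08 (standard error 0.09) and -0.03 (standard error 0.09). Of the ON-bipolar partners of Grm6, 4 of 6 were tested, 0 had an unadjusted p below 0.05, and Gnb3 and Trpm1 had log2 fold changes of -0.32 (standard error 0.14) and 0.34 (standard error 0.25).

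Ethanol 3 bore on this list as on Grm2. Without it, 11 of the 73 genes had an unadjusted p below 0.05 (15.1%, beside 8.87% of all genes tested in that fit), all 11 of them higher in the ethanol group. They were Rgs14, Cnih3, Tamalin, Homer1, Plcb1, Rgs7, Sipa1l1, Gnaz, Gnaq, Dagla and Kcnj3, which were named after their values were seen. In that fit 1 of them, Rgs14, was 0.34 higher on the log2 scale (standard error 0.06) and passed the threshold (edgeR, adjusted p = 0.188). Of all genes tested in that fit, 0.452% passed it. Homer1, which links Grm5 to its scaffold, had 0.29 (standard error 0.06, adjusted p = 0.286). Leaving out this library leaves the ethanol group with ethanol 1 and 2, the libraries with the least choroid plexus RNA. The pallial neuron genes summed to 941 CPM in ethanol 3, beside 1346 and 1694 CPM in ethanol 1 and 2. For the oligodendrocyte genes these sums were 9725, 4354 and 6020 CPM, and for the hypothalamic genes 315, 22.8 and 13.7 CPM. Of the 315 CPM in ethanol 3, Pmch alone made up 206 CPM. The part of these differences in the pathway values was not tested.

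**Figure D5:**
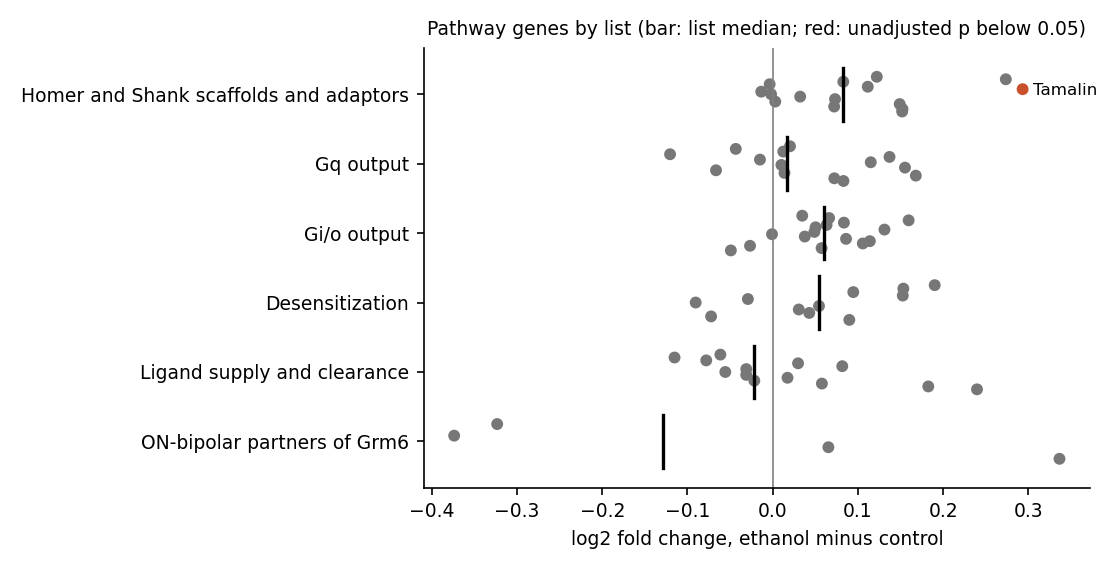
Log2 fold change, ethanol minus control, of the 73 tested pathway genes on the horizontal axis, by list, with 1 point per gene, a bar for the list median and red for an unadjusted p below 0.05. Tamalin, at 0.29, is the red point, and the medians of the lists with more than 10 genes lie between -0.02 and 0.08.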

How the data were processed

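Per the labels and file headers, the authors quality-trimmed and aligned single-end reads of 100 nt (STAR 2.7.0f among the listed tools) and deposited raw counts per gene from featureCounts 1.6.3, reverse-stranded, over the exons of the Rnor_6.0 RefSeq annotation, without the option that counts multi-mapping reads. The deposited Length column, another value per gene, holds the exonic bases. The labels also list R 3.6.2, edgeR and limma for the authors' own analysis.

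From these counts, groups were compared with edgeR 4.0.16 under R 4.3.3 (filterByExpr with a minimum of 10 counts and 15 in total, TMM factors from 0.976 to 1.01, quasi-likelihood F test, Benjamini-Hochberg adjustment over 18141 genes, threshold 0.2). DESeq2 1.42.0 and limma-voom (limma 3.58.1) were alternatives. The standard error was the absolute log2 fold change over the square root of F. CPM are scaled by TMM, log2 CPM carries a prior count of 2, and exact permutation tests are two-sided over 20 label swaps. The scripts were tested on simulated data. Symbols came from a RefSeq gene table for 29322 of 38445 identifiers.

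The members and lists were chosen with earlier results of these data known. Beyond the 7 receptors, the genes named were those of each pathway list with an unadjusted p below 0.05, the 2 of highest mean CPM in each, and the 3 of closest pattern to each receptor. A few others were named after their values were seen. A gene that this rule names is not reported here.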

Additional observations from a re-analysis of the deposited data

How the results depend on the processing

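Under 16 alternatives, 0 of the 7 receptors were called in each. The number with an unadjusted p below 0.05 was 0 to 1 with single libraries left out, namely Grm4 without ethanol replicate 2 (3.16% of all genes in that fit) and Grm2 without ethanol replicate 3 (8.87%), and 1 with the replicate block (5.6%; Grm8, log2 fold change 0.19, unadjusted p = 0.0305, adjusted p = 0.812). Libraries of the same number hold different rats. Their deviations from the group means correlated by 0.0264, 0.388 and 0.211 for numbers 1, 2 and 3. Between libraries of different number, control 1 correlated by -0.414 with ethanol 2 and 0.305 with ethanol 3. Control 2 did so by 0.184 with ethanol 1 and -0.427 with ethanol 3, and control 3 by -0.264 with ethanol 1 and -0.0421 with ethanol 2. Whether libraries of the same number shared handling was not tested. Grm4 kept its direction under all 16 alternatives, and Grm2 and Grm3 under 15. With the choroid plexus score as a covariate, the log2 fold change reversed for Grm2 (-0.14), Grm5 (-0.29), Grm7 (-0.19) and Grm8 (-0.052). The standard errors of these values were 0.18, 0.19, 0.11 and 0.32. The score was itself lower in the ethanol group, so that fit cannot fully separate it from the treatment. With the pallial neuron score it reversed for Grm5 (-0.063) and Grm7 (-0.0012). With 1 library left out at a time, it ran from -0.046 to 0.092 for Grm3, from -0.052 to 0.20 for Grm5, from -0.20 to 0.23 for Grm6, from -0.034 to 0.13 for Grm7 and from -0.022 to 0.37 for Grm8. The cause of these reversals was not tested.

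With single libraries left out, 0 to 1 of the 73 pathway genes were called, the 1 without ethanol replicate 3 (0.452% of all genes called). Between 1 and 11 had an unadjusted p below 0.05, the 11 also without ethanol replicate 3 (8.87% of all genes). The latter count, with the share of all genes in the same fit, was 4 with library size alone (4.51%), 2 without the low-count filter (3.65%), 2 with a mean CPM of at least 1 (3.95%), 2 with DESeq2 (3.56%), 3 with the replicate block (5.6%), 4 with the choroid plexus score (5.66%) and 6 with the pallial neuron score (7%). Library size alone moved the median of all genes to -0.020.

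The spread between libraries exceeded counting error for each receptor, and each group has 3 libraries.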
